A study of Homo sapiens with 4 samples.

Results

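The mRNAs of 10 integrin subunits were followed in 2 human gastric cancer cell lines, with and without the cardiac glycoside periplocymarin: ITGAV, ITGA2, ITGA3, ITGA5 and ITGA6 on the alpha side and ITGB1, ITGB4, ITGB5, ITGB6 and ITGB8 on the beta side. The genes were taken by name from a table of 62710 Ensembl genes, in which all 26 human integrin subunit genes were found by symbol. HGC27, an undifferentiated gastric carcinoma line, and MKN45, a line of poorly differentiated adenocarcinoma, were each kept for 24 h in vehicle (0.1% DMSO) or with periplocymarin at 0.3 µM. Poly(A) RNA of each of these 4 cultures was sequenced as 1 library, so no difference between treatments of a line can be checked on replicates, and the effects of culture and treatment cannot be told apart. Periplocymarin is an inhibitor of the sodium-potassium pump of the cell membrane.

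Integrins are the receptors by which cells hold on to the extracellular matrix, and each is a pair of an alpha and a beta chain. ITGB1 pairs with many alpha chains, with ITGA2 to bind collagen, with ITGA3 or ITGA6 to bind laminins, and with ITGA5 to bind fibronectin. ITGB4 pairs only with ITGA6 and anchors epithelial cells to laminin through hemidesmosomes, whereas ITGAV joins ITGB1, ITGB5, ITGB6 or ITGB8, and the pairs with ITGB6 and ITGB8 release active TGF-beta from its latent form.

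Values are deposited FPKM, reads scaled to gene length and library size, and a pair of values for a line gives the vehicle library first. The reads behind them, recovered from the steps between low values, came to 24886871 to 36571319 per library. The cultures differed in epithelial character. The 8 epithelial markers summed to 4.61 and 1.57 FPKM in vehicle and treated HGC27 and to 1949 and 3116 FPKM in MKN45, while the 6 mesenchymal markers summed to 698 and 871 FPKM in HGC27 and to 4.17 and 6.84 FPKM in MKN45. The 4 fibroblast markers summed to 55.95 and 111 FPKM in HGC27 and to 0.0907 FPKM and 0 in MKN45. LYZ stood at 161 and 125 FPKM in MKN45 while the leukocyte marker PTPRC was at 0 there, and the endothelial marker CDH5 was at 0 in all 4 libraries. What part these differences have in the integrin levels was not tested.

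Of the 10 chains, the most abundant mRNAs in vehicle HGC27 were ITGB1, ITGA5, ITGAV, ITGB5 and ITGA6, and in vehicle MKN45 ITGB4, ITGA6 and ITGB1. The collagen receptor chain ITGA2 was at 0.0864 FPKM in vehicle and 0.0376 FPKM in treated HGC27, from 22 and 7 reads, and at 8.87 and 33.2 FPKM in MKN45. The hemidesmosome chain ITGB4 was at 0.128 and 0.0251 FPKM in HGC27, from 28 and 4 reads, and at 162 and 87.8 FPKM in MKN45. ITGB6 had 0 reads in both HGC27 libraries, and 17.7 and 18.7 FPKM in MKN45. These 3 chains were thus at or near 0 in HGC27 and well above it in both MKN45 libraries.

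For ITGB6, 3 reads in vehicle HGC27 would be 0.0161 FPKM, which puts vehicle MKN45 at least 1099-fold higher, and 3 reads in treated HGC27 would be 0.0220 FPKM, which puts treated MKN45 at least 849-fold higher. ITGB8, which with ITGAV also frees TGF-beta, was at 0.299 FPKM in vehicle and 0.235 FPKM in treated HGC27, against 3.47 and 3.79 FPKM in MKN45. ITGB6 and ITGB8 were thus both low in HGC27.

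The laminin receptor chains were also higher in MKN45. ITGA6 was at 4.73 FPKM in vehicle and 1.38 FPKM in treated HGC27, against 139 and 190 FPKM in MKN45. ITGA3 was at 1.151 and 1.33 FPKM in the HGC27 libraries, and in the MKN45 libraries at 21.3 and 18.0 FPKM. Neither gene's libraries overlapped between the lines.

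ITGA5, the fibronectin receptor chain, was the member that stood higher in HGC27, at 18.9 and 28.3 FPKM, against 4.83 and 3.62 FPKM in MKN45. ITGB1 was at 21.9 and 48.9 FPKM for HGC27, with 53.9 and 102 FPKM for MKN45, so that its treated HGC27 library came close to vehicle MKN45. ITGB5 was at 5.01 FPKM in vehicle and 9.15 FPKM in treated HGC27, against 23.2 and 26.4 FPKM in MKN45. ITGAV was nearly level in the vehicle libraries, at 7.30 FPKM in HGC27 and 7.49 FPKM in MKN45, and stood at 21.0 and 11.7 FPKM after periplocymarin. ITGAV was the member whose lines overlapped.

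**Figure D1:**
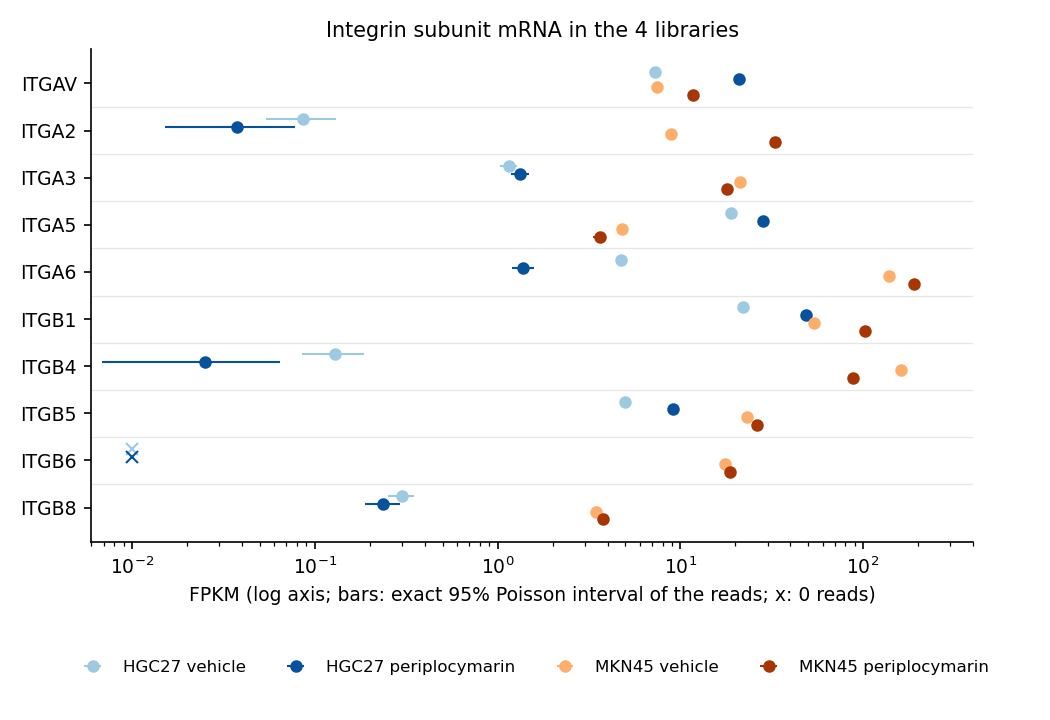
FPKM of each integrin subunit on a log axis, 1 point per library, in blue for HGC27 and orange to brown for MKN45, darker for periplocymarin. Bars are exact 95% Poisson intervals of the recovered reads and crosses mark 0 reads, which only ITGB6 had, in both HGC27 libraries. ITGA2, ITGB4 and ITGB6 lie far to the left in HGC27, ITGA5 is the gene with HGC27 to the right, and the ITGAV points of the lines interleave.

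Ordered by level within a library, ITGB1, ITGA5 and ITGAV came first, in that order, in both HGC27 libraries. ITGB5 at 5.01 and ITGA6 at 4.73 FPKM in vehicle HGC27 did not differ beyond counting error (95% Poisson intervals of the reads), nor did ITGA6 and ITGA3 in treated HGC27, at 1.38 and 1.33 FPKM. The near-zero chains ITGB4 and ITGA2 could not be ordered in either HGC27 library. In MKN45, ITGB4 at 162 FPKM stood first in the vehicle, before ITGA6 and ITGB1, and ITGA6 at 190 FPKM stood first after periplocymarin, before ITGB1 and ITGB4. ITGB6 and ITGA3 at 18.7 and 18.0 FPKM, and ITGB8 and ITGA5 at 3.79 and 3.62 FPKM, did not differ beyond counting error in treated MKN45. Levels of different genes rest on the length each is divided by. The deposited value of ITGB1 was whole in reads at a length of 14561 bases, against 6011 bases for its exons in GENCODE 29. With GENCODE 29 lengths ITGB1, not ITGA6, stood first in treated MKN45, and the leading 3 of the other libraries kept their order.

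The 5 alpha members held 72.8% of the summed FPKM of all 18 alpha subunit genes in vehicle HGC27, and 86.3%, 98.0% and 99.1% in treated HGC27, vehicle MKN45 and treated MKN45. Most of the rest in HGC27 was ITGA4, a receptor chain for VCAM1 and fibronectin, with 18.0% and 10.5%. With GENCODE 29 lengths the alpha members held 77.3% and 89.8% in vehicle and treated HGC27, and ITGA4 12.5% and 6.99%. ITGA4 had 7.95 and 6.36 FPKM in HGC27 and 0 in both MKN45 libraries. ITGAE, a lymphocyte alpha chain that binds E-cadherin, was at 1.85 and 1.40 FPKM in the HGC27 libraries, and in the MKN45 libraries at 2.40 and 2.27 FPKM. The other 14 of the 16 subunit genes outside the list, the leukocyte chain ITGB2 and the platelet chain ITGA2B among them, were under 1 FPKM in every library.

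Within the alpha sum, ITGA5 took 42.8% in vehicle and 46.9% in treated HGC27, and ITGAV took 16.5% and 34.8%. With GENCODE 29 lengths these shares were 43.0% and 44.9% for ITGA5 and 20.1% and 40.3% for ITGAV. In MKN45, ITGA6 took 75.1% and 73.4%, and ITGA2 took 4.79% and 12.8%. Within the sum of the 8 beta genes, ITGB1 took 78.8% and 83.8% in HGC27, where ITGB5 took 18.0% and 15.7%. In MKN45, ITGB4 took 62.2% in the vehicle and 36.7% after periplocymarin, while ITGB1 took 20.7% and 42.8%. The beta chain with the larger share of MKN45 mRNA was thus ITGB4 in the vehicle and ITGB1 in the treated library. With GENCODE 29 lengths the shares of ITGB4 were 47.4% and 22.6% and those of ITGB1 38.3% and 63.6%, with the same order. With these lengths ITGB5 took 8.54% and 7.23% of the beta sum in HGC27. The beta sum itself was 27.8 and 58.3 on the deposited scale for HGC27, and 260 and 239 for MKN45. With GENCODE 29 lengths it was 59.2 and 128 for HGC27 and 341 and 389 for MKN45, so the MKN45 sum was lower after periplocymarin on one scale and higher on the other. These are shares of mRNA and say nothing of how much of each pair is on the cell surface.

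**Figure D2:**
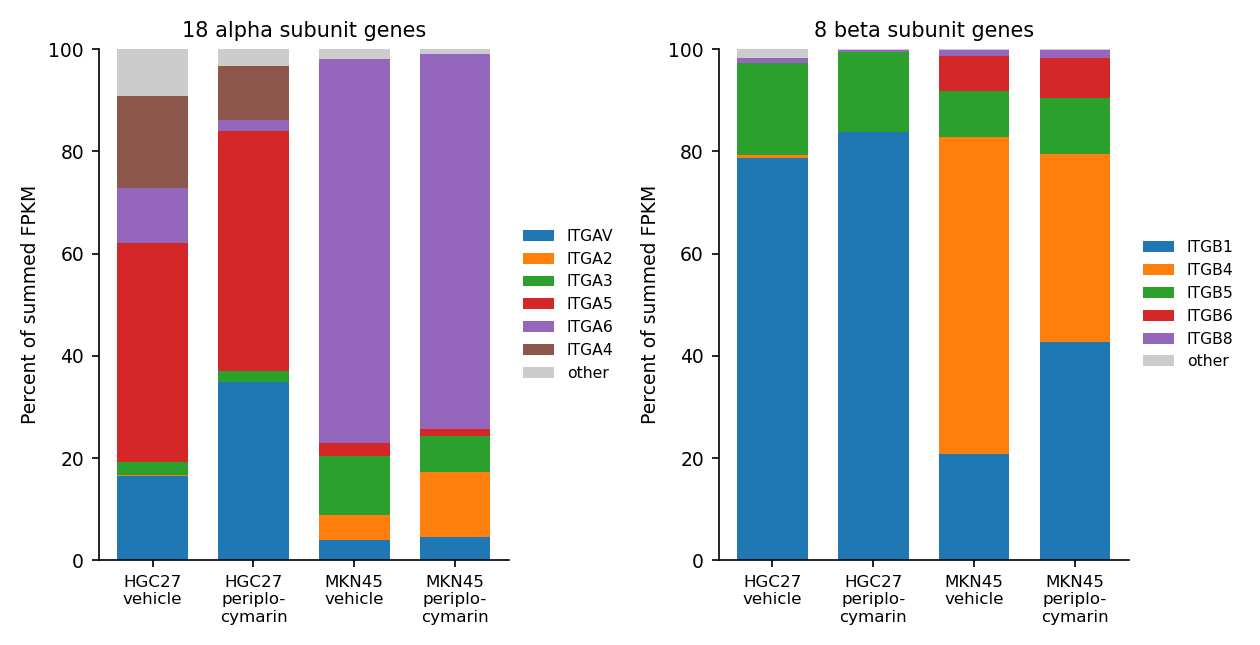
Share of the summed deposited FPKM taken by each subunit, for the 18 alpha genes on the left and the 8 beta genes on the right, 1 bar per library, with the genes not named in grey. ITGA6 fills 75.1% and 73.4% of the alpha bars of MKN45, and in the MKN45 beta bars ITGB4 goes from 62.2% to 36.7% as ITGB1 goes from 20.7% to 42.8%.

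The lines were compared over both treatments with limma on log2(FPKM + 1), with treatment as a covariate. A call needed a Benjamini-Hochberg adjusted p under 0.05 over the 12353 genes tested, which averaged no less than 1 FPKM and 10 reads. Lower in HGC27 were 8 of the 10 subunits and higher was 1, ITGA5, while 16.3% of all genes tested were called higher in HGC27 and 19.6% lower, or 35.9% in either direction. The median fitted difference, HGC27 minus MKN45, was -2.54 over the 10 subunits and -0.03 over all genes tested. The genes were listed with results of these data known, so the count describes them and is no independent evidence.

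ITGB4 had the largest fitted difference of the 10, -6.80 ± 0.30 (moderated SE, limma adjusted p = 6.73e-07), and ITGA6 followed at -5.47 ± 0.39 (adjusted p = 7.20e-06). The difference was -4.26 ± 0.29 for ITGB6 and -4.11 ± 0.42 for ITGA2. It was -3.20 ± 0.29 for ITGA3, -1.87 ± 0.31 for ITGB8 and -1.72 ± 0.29 for ITGB5. The pseudocount of 1 shortens the differences of genes near 0 in HGC27, and the order of the genes rests on it. With a pseudocount of 0.1 ITGB4 stayed largest at -9.46, before ITGB6 at -7.51, ITGA2 at -6.75 and ITGA6 at -5.93. With limma-voom on the recovered reads ITGB6 was largest at -12.5, before ITGB4 at -10.8, ITGA2 at -8.15 and ITGA6 at -5.81. In the fit with a pseudocount of 1, ITGB1 was lower in HGC27, at -1.16 ± 0.27 (limma adjusted p = 0.00869). ITGA5 was higher by 2.22 ± 0.31 (limma adjusted p = 0.000507). ITGAV did not pass, at 0.38 ± 0.31 (limma adjusted p = 0.374). The 2 libraries of a line differ in treatment and are 1 culture each. The residual, with 1 degree of freedom, is the difference in treated minus vehicle between the lines. The standard error is that residual moderated over genes (prior degrees of freedom 8.53), and the p-values measure no spread between replicates. With treatment left out of the fit ITGB1 no longer passed (limma adjusted p = 0.247). Scaling the libraries to equal sums moved the median of all genes in this comparison by 0.288 and the calls from 45.4% to 63.1% higher in HGC27, and the same 9 subunits passed in the same direction.

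In the vehicle libraries alone, 8 of the 10 were at least 2-fold lower in HGC27 on the log2(FPKM + 1) scale, where 17.4% of 13031 measured genes were, and ITGA5 was at least 2-fold higher, where 14.3% were (31.6% in either direction). With equal sums the vehicle difference of ITGB1 was -0.79, which left 7 lower. In the treated libraries the count was again 8 lower and 1 higher, against 35.6% of 11681 measured genes in either direction. ITGA5 stood 3.92-fold higher in vehicle HGC27 (95% interval 3.68 to 4.17 from an exact binomial interval of the reads) and 7.81-fold higher in treated HGC27 (7.19 to 8.50). ITGAV stood at 0.974 times its vehicle MKN45 level in vehicle HGC27 (0.921 to 1.031) and at 1.79 times its treated MKN45 level in treated HGC27 (1.71 to 1.88). These intervals, here and below, cover counting error only.

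**Figure D3:**
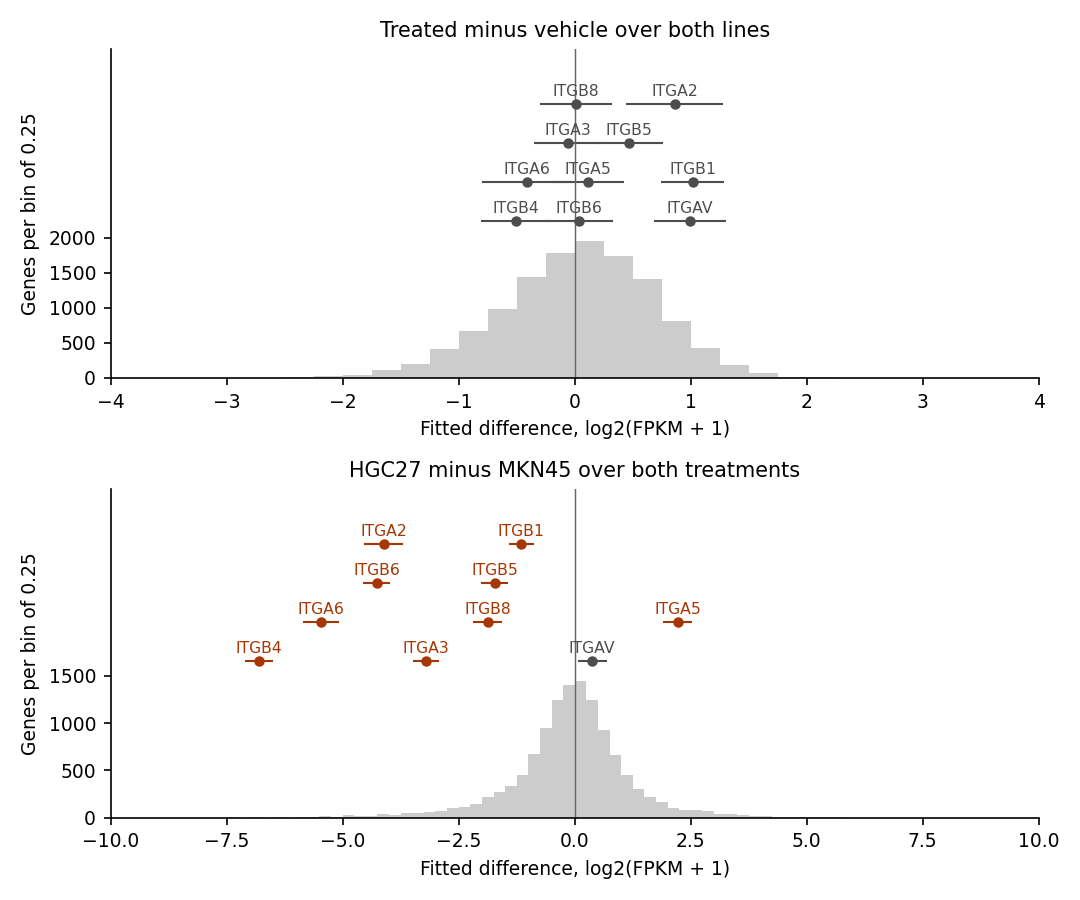
Fitted differences on log2(FPKM + 1) from limma for treated minus vehicle (top) and HGC27 minus MKN45 (bottom), with the 10 subunits as points with moderated standard errors, in brown where the adjusted p was under 0.05, above a histogram of all 12353 genes tested. The heights of the points carry no value. No subunit is brown in the top panel, where ITGB1 and ITGAV lie farthest to the right, and 9 are brown in the bottom panel, of which ITGA5 lies to the right of 0 and the other 8 to the left.

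The 250 bases before a RefSeq transcript start are printed for chains that differ between the lines (ITGB6, ITGA2 and ITGA5). They are also printed for the chains that were highest by fitted treatment difference (ITGB1 and ITGAV). RefSeq windows, build GRCh38.p14, were matched for 8 of the 10 subunits, with 13 starts in all. ITGA3 and ITGB4 were not matched. For ITGB1 and ITGAV the window is 1 of 2. RefSeq starts differ from the ends of the GENCODE 29 gene spans given below. Against those spans the ITGB1 window lies within the gene. The windows of ITGA5, ITGB6 and ITGA2 lie partly within their genes, and that of ITGAV lies before its gene. The windows are chr2:160200273-160200522, minus strand, for ITGB6, chr5:52989102-52989351, plus strand, for ITGA2, chr12:54419267-54419516, minus strand, for ITGA5, chr10:32958231-32958480, minus strand, for ITGB1 and chr2:186589806-186590055, plus strand, for ITGAV. Each is written 5′ to 3′ on the strand of its gene, and capitals mark GGGCGG (the GC box bound by SP1 and KLF factors) and GGAATG (a core of TEAD sites). Motifs were sought on both strands, so a match may also read CCGCCC.
ITGB6: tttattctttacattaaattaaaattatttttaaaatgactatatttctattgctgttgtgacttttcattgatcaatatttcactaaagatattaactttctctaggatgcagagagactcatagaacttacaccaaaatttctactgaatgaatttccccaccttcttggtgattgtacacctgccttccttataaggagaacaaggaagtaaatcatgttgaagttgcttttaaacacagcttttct
ITGA2: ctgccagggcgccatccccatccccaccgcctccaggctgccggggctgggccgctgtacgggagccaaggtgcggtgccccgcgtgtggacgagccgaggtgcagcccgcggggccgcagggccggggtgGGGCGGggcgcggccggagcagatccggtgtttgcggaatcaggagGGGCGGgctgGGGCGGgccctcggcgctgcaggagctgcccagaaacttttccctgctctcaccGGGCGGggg
ITGA5: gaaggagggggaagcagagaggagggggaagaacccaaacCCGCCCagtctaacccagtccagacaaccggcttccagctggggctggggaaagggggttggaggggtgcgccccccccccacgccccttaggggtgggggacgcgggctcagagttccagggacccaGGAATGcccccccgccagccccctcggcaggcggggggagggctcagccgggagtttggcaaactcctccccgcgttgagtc
ITGB1: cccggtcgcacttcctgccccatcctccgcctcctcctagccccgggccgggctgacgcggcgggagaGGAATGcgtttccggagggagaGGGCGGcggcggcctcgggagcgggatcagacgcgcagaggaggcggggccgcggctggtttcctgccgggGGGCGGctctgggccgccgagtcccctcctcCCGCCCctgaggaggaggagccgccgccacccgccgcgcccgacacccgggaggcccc
ITGAV: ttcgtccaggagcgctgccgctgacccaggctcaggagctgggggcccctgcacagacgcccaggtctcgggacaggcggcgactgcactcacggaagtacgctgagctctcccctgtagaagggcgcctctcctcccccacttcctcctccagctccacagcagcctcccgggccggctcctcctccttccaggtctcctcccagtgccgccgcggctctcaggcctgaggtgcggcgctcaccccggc

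The window of ITGB6 held 30.0% G and C and 0 CG dinucleotides, and that of ITGA2 76.4% and 26, against medians of 58.0% and 11 over all RefSeq windows. Both genes were at or near 0 in HGC27, so chains near 0 there lay behind windows of unlike composition. GGGCGG matched 4 times in the window of ITGA2, 3 times in that of ITGB1 and 1 time in that of ITGA5. Of the 13 windows 7 held it, against 42.5% of 34943 RefSeq windows. GGAATG was in 2 of the 13, those of ITGB1 and ITGA5, against 11.9% of all windows. TGANTCA, the AP-1 site, was in 0 of the 13, against 6.59%, and TATAAA in 2 of the 13, against 10.8%. A match here is a run of letters and not a shown binding site.

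None of the 10 subunits passed the test of periplocymarin against vehicle over both lines (limma on log2(FPKM + 1), lines as blocks, Benjamini-Hochberg adjusted p under 0.05), where 6.61% of the 12353 genes tested did, 3.43% higher and 3.17% lower. Before adjustment 2 of the 10 had p under 0.05, ITGB1 and ITGAV. With limma-voom on the recovered reads 3 passed as higher, those 2 and ITGA2, where 857 of the 12353 genes did and 666 passed as lower. ITGA2 had 22 reads in vehicle and 7 in treated HGC27, so its rise was seen in MKN45 only. In the fit on log2(FPKM + 1), the median difference was 0.07 over the 10 and 0.06 over all genes tested.

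ITGB1 binds the most alpha chains of these beta subunits. It was at 21.9 FPKM in vehicle and 48.9 FPKM in treated HGC27, and at 53.9 and 102 FPKM in MKN45. The treated library was thus higher in both lines, 2.23-fold in HGC27 (exact 95% counting interval 2.18 to 2.29) and 1.90-fold in MKN45 (1.87 to 1.93). Its fitted difference, the largest of the 10 in this fit but not with limma-voom, library totals alone, quantile normalization or a pseudocount of 0.1, was 1.02 ± 0.27 (moderated SE, limma adjusted p = 0.0544). ITGB1 passed with a pseudocount of 0.1 (adjusted p = 0.0337), equal sums (0.0457), a floor of 10 FPKM (0.00835) or limma-voom (0.0228). At the floor of 10 FPKM the ITGB1 difference was unchanged and its SE was larger, 0.31, and 1055 of 4453 genes tested were called higher. With quantile normalization its difference was 0.58 (limma adjusted p = 0.185), and over all settings run its adjusted p went from 0.00835 to 0.876. A processed copy, ITGB1P1 on chromosome 19, was listed at 23.3 and 46.0 FPKM for HGC27, with 55.8 and 92.6 FPKM for MKN45. It held 457 to 1345 reads against 10294 to 35504 for ITGB1, and reads of the parent and the copy may have been split between them.

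ITGAV, the alpha chain shared by the TGF-beta-releasing pairs, was at 7.30 FPKM in vehicle and 21.0 FPKM in treated HGC27, against 7.49 and 11.7 FPKM in MKN45. Its treated library was 2.88-fold higher in HGC27 (exact 95% counting interval 2.74 to 3.03) and 1.56-fold higher in MKN45 (1.48 to 1.65). The fitted difference was 0.995 ± 0.31 (limma adjusted p = 0.0765). ITGAV passed at a floor of 10 FPKM (adjusted p = 0.0160) and with limma-voom (0.0410), and over all settings run its adjusted p went from 0.0160 to 0.972. At the floor of 10 FPKM its difference was likewise unchanged and its SE was larger, 0.33.

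ITGA2, the collagen receptor chain, had the largest treated difference of any member in MKN45, from 8.87 to 33.2 FPKM or 3.74-fold (exact 95% counting interval 3.57 to 3.92). In HGC27 it was too low to be measured, with 22 reads in the vehicle and 7 in the treated library. Its fitted difference was 0.86 ± 0.42 (limma adjusted p = 0.207), and that fit joins a line with the gene and a line almost without it.

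Within HGC27, where 6 of the 10 averaged 1 FPKM or more, ITGAV and ITGB1 were at least 2-fold higher in the treated library on the log2(FPKM + 1) scale and ITGA6 at least 2-fold lower. Of 11821 measured genes 9.72% were that much higher and 10.4% that much lower, 20.1% together. ITGA6 went from 4.73 to 1.38 FPKM after periplocymarin, 0.291 times the vehicle level (exact 95% counting interval 0.251 to 0.338). ITGB5 was 1.83-fold higher (1.69 to 1.98) and ITGA5 1.49-fold higher (1.44 to 1.56), both beyond counting error and under the 2-fold line. ITGA3 was within counting error of its vehicle level, with a ratio between 0.986 and 1.34. With library totals alone, quantile normalization or equal sums, only ITGAV of the measured subunits was at least 2-fold higher in HGC27.

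Within MKN45, where all 10 were measured, ITGA2 alone was at least 2-fold higher and none was at least 2-fold lower, against 8.21% and 8.94% of 11895 measured genes (17.2% together). ITGB4 went the other way from ITGB1, from 162 to 87.8 FPKM or 0.543 times the vehicle level (exact 95% counting interval 0.533 to 0.554), and was at least 2-fold lower with quantile normalization or library totals alone. ITGA6, the partner of ITGB4, was 1.37-fold higher (1.34 to 1.39). ITGA5 was at 0.750 times (0.681 to 0.825) and ITGA3 at 0.844 times (0.812 to 0.876) the vehicle level. ITGB5, ITGB8 and ITGB6 lay between 1.06-fold and 1.14-fold, with lower interval bounds of 1.09, 1.02 and 1.01. These directions rested on the scaling: the log2(FPKM + 1) difference of ITGB6 was -0.21 with quantile normalization and -0.14 with library totals alone, and that of ITGB8 was -0.076 with library totals alone. With equal sums ITGB1 joined ITGA2 at 2-fold or more in MKN45.

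**Figure D4:**
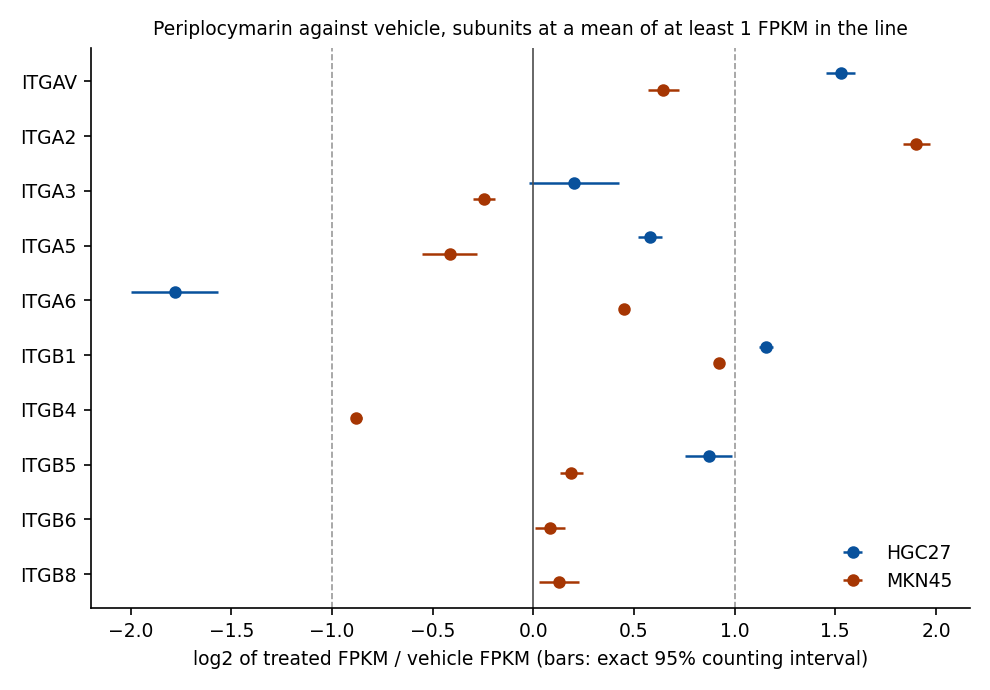
log2 ratio of treated to vehicle FPKM for each subunit measured in a line, with exact 95% counting intervals, blue for HGC27 and brown for MKN45, and dashed lines at a 2-fold ratio. ITGAV and ITGB1 lie to the right of 0 in both lines, and ITGA2 is the farthest right in MKN45. ITGA6, ITGA5 and ITGA3 lie on opposite sides of 0 in the 2 lines, where the HGC27 interval of ITGA3 crosses 0.

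ITGAV and ITGB1 were higher after periplocymarin in both lines under each scaling run. ITGB5 was higher in both on the deposited scale, but its MKN45 difference was -0.17 with quantile normalization and -0.036 with library totals alone. ITGA6 and ITGA5 had opposite directions in the lines, each beyond counting error. ITGA3 had opposite directions on the deposited scale, within counting error in HGC27, and with library totals alone was lower in both, at -0.082 and -0.45. The difference in response between the lines cannot be tested with 1 library per line and treatment. In RNA of whole cultures, fewer cells with a chain and less mRNA per cell cannot be told apart. Scaling to library totals alone moved the median treatment difference of all genes by -0.218. Relative to that median ITGB1 and ITGAV then stood 0.89 higher each, against 0.96 and 0.93 on the deposited scale.

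Beneath the membrane, talins and kindlins bind beta chain tails and activate integrins, and filamins, alpha-actinins and vinculin tie them to actin. Of 28 genes of such adaptors and linkers, 25 were tested, 2 fell, none rose and 23 did not pass, with a median of 0.17, where 3.17% of all genes tested fell and 3.43% rose. FERMT1, or kindlin-1, fell by 1.75 ± 0.28 (moderated SE, limma adjusted p = 0.0240), with 4.36 then 0.618 FPKM for HGC27 and 25.1 then 6.66 FPKM for MKN45. TLN2, the second talin, fell by 1.22 ± 0.31 (limma adjusted p = 0.0499), its level going from 2.99 to 0.645 FPKM across the HGC27 pair, and 2.14 to 0.405 FPKM across the MKN45 pair, and did not pass with equal sums (0.0695) or quantile normalization (0.115). TLN1, the main talin of most cells, was at 18.8 and 21.5 FPKM in the HGC27 libraries, and in the MKN45 libraries at 10.3 and 12.3 FPKM. ACTN4, an alpha-actinin, was highest of the list against vehicle in HGC27, from 9.28 to 24.8 FPKM, and RAP1B, a small GTPase that acts on talin, in MKN45, from 10.4 to 20.7 FPKM.

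Of 27 extracellular ligands 20 were tested, 4 rose, none fell and 16 did not pass, with a median of 0.15, against the same 3.43% rising and 3.17% falling over all genes. CCN1 and CCN2, matricellular ligands of several of these integrins, rose by 2.62 ± 0.28 and 1.78 ± 0.29 (limma adjusted p = 0.00540 and 0.0232). CCN1 had 3.22 and 23.5 FPKM in the HGC27 libraries, while MKN45 had 9.63 and 68.3 FPKM. CCN2 went from 1.41 to 6.50 FPKM across the HGC27 pair, and 6.16 to 26.2 FPKM across the MKN45 pair. THBS1, or thrombospondin-1, rose by 1.25 ± 0.30 (limma adjusted p = 0.0426), from 1.74 to 4.67 FPKM and from 1.24 to 5.16 FPKM, but did not pass with equal sums (0.0624). The laminin chain LAMC1 rose by 1.10 ± 0.27 (limma adjusted p = 0.0458), with 34.3 then 74.4 FPKM for HGC27 and 17.4 then 38.4 FPKM for MKN45, but did not pass with quantile normalization (0.1703) or library totals alone (0.0579). Calls of CCN1 and CCN2 were in view when the list was made. TNC, or tenascin-C, was lowest of the list in HGC27, from 4.58 to 0.819 FPKM, and the laminin chain LAMB2 in MKN45, from 13.0 to 7.79 FPKM. None of these 6 calls of ligands and adaptors held without the line block or without a filter on low values.

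Of 11 hemidesmosome, tetraspanin and other membrane partners, none of the 11 tested passed by limma, and 1 had an unadjusted p under 0.05. The tetraspanin CD9 was highest in HGC27, from 2.69 to 8.03 FPKM, and the hemidesmosome linker DST in MKN45, from 12.7 to 27.8 FPKM, while of those averaging 1 FPKM or more in the line DST was lowest in HGC27, from 3.23 to 2.48 FPKM, and the tetraspanin CD82 in MKN45, from 3.79 to 2.25 FPKM. Of 10 trafficking genes, none of the 9 tested passed by limma, with 1 at an unadjusted p under 0.05. RAB11A, of the recycling endosome, was highest in HGC27, from 10.1 to 21.5 FPKM, and RAB21, which carries integrins through endosomes, in MKN45, from 7.66 to 13.7 FPKM. The adaptors DAB2 in HGC27, from 1.29 to 0.831 FPKM, and SNX17 in MKN45, from 25.4 to 15.97 FPKM, were lowest.

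Between the lines, 10 of the 25 adaptors tested were lower in HGC27 and 3 higher, and of the 11 membrane partners 6 were lower and 2 higher. Of the 20 ligands 10 were higher in HGC27 and 7 lower, and of the 9 trafficking genes 4 were lower and none higher, where over all genes tested 19.6% were lower and 16.3% higher. Kindlin-1 and kindlin-2 went opposite ways. The difference of HGC27 from MKN45 was -2.26 ± 0.28 for FERMT1 and 3.76 ± 0.28 for FERMT2 (limma adjusted p = 0.000236 and 1.01e-05). COL17A1, a hemidesmosome collagen, was at 0 in both HGC27 libraries and at 9.51 and 20.5 FPKM in MKN45. Laminin chains went both ways: LAMA3 and LAMB3 were lower in HGC27, at -4.03 ± 0.34 and -5.83 ± 0.30, while LAMA1, LAMA2 and LAMC1 were higher, by 1.95 ± 0.33, 2.82 ± 0.31 and 0.94 ± 0.27. FN1, the fibronectin bound by ITGA5, was at 2.63 and 2.45 FPKM for HGC27, with 0.0252 and 0.0268 FPKM for MKN45. LAMA1, LAMA2, LAMA3, LAMB3, COL17A1, FERMT2 and FN1 were singled out after their values were seen.

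In GRCh38 with the GENCODE 29 annotation, ITGB6 (ENSG00000115221) spans chromosome 2 from 160099666 to 160200313, minus strand, ITGA6 (ENSG00000091409) chromosome 2 from 172427354 to 172506282, plus strand, and ITGAV (ENSG00000138448) chromosome 2 from 186590065 to 186680901, plus strand. ITGB5 (ENSG00000082781) lies on chromosome 3 from 124761948 to 124901418, minus strand, ITGA2 (ENSG00000164171) on chromosome 5 from 52989326 to 53094779, plus strand, and ITGB8 (ENSG00000105855) on chromosome 7 from 20330702 to 20415754, plus strand. ITGB1 (ENSG00000150093) lies on chromosome 10 from 32900319 to 33005792, minus strand, and ITGA5 (ENSG00000161638) on chromosome 12 from 54395261 to 54419460, minus strand. The remaining members share a chromosome: ITGA3 (ENSG00000005884) lies on chromosome 17 from 50055968 to 50090481 and ITGB4 (ENSG00000132470) from 75721328 to 75757818, both plus strand. ITGB4 overlaps GALK1, an enzyme gene on the opposite strand at 4.32 FPKM in vehicle and 1.14 FPKM in treated HGC27, against 4.40 and 3.97 FPKM in MKN45. No strand setting is given, so reads of the shared stretch cannot be told apart, which matters most for the 28 and 4 reads of ITGB4 in HGC27. The other gene models that overlap a member were each under 1 FPKM in every library.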

How the data were processed

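Poly(A) RNA libraries of HGC27 and MKN45, 1 each for vehicle and periplocymarin, were grouped by sample titles. fastp 2.0, HISAT2 2.1.0 and hg38 are listed, without their role, in the submitters' processing notes. Counter, annotation and strand setting were not given in the sources used here. The deposited table states no unit; judged by its values, the authors deposited FPKM. Whole reads were recovered from the value of 1 read and gene lengths, from GENCODE 29 or searched: at a tolerance of 0.0001 reads, 15204 of 30457 genes were whole at the GENCODE length and 20299 of 20299 genes above 0 in at least 3 libraries at either length. For ITGB6 the length was searched from the 2 libraries above 0. Implied library sizes were 1.20, 0.947, 1.01 and 0.862 times the recovered totals (vehicle and treated HGC27, vehicle and treated MKN45), so the FPKM were taken to carry a composition factor.

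limma 3.58.1 in R 4.3.3 (lmFit, eBayes with trend) was fitted to log2(FPKM + 1) with line and treatment as terms, for genes that averaged 1 FPKM and 10 recovered reads or more. The cell line pairs the libraries by design. Limma-voom used the recovered reads with the implied library sizes in place of the TMM factors that had been planned, which were not computed. Differences within a line had no test. Counting intervals are 95% Clopper-Pearson (ratios) or Poisson (levels). The fit was also run on simulated data whose changed genes changed alike in both lines. Those data held no response that differs between lines, so they do not test the fit for such genes. All 10 subunits are named, with the other subunit genes of at least 1 FPKM; of each other list, genes past the treatment test, then the highest and lowest in each line. Genes added outside that rule are TLN1 and those said in the text. Members, lists and the comparisons were chosen with earlier results of these data known.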

Additional observations from a re-analysis of the deposited data

Results flagged for a closer look

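ITGA6 and ITGA5 moved in opposite directions after periplocymarin in the 2 lines, each beyond counting error. ITGA6 was at 4.73 and 1.38 FPKM in the HGC27 libraries, and in the MKN45 libraries at 139 and 190 FPKM, and its treated minus vehicle difference, HGC27 minus MKN45, was -1.72 on the log2(FPKM + 1) scale. ITGA5 was at 18.9 and 28.3 FPKM for HGC27, with 4.83 and 3.62 FPKM for MKN45, a difference between the lines of 0.891, which was 0.383 with quantile normalization. Neither difference was tested, since each line had 1 library per treatment. That each ratio had to lie beyond its counting interval was set after seeing the data.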

How the results depend on the processing

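Over all genes, periplocymarin against vehicle gave 424 higher and 392 lower genes. These counts were 750 and 730 with a pseudocount of 0.1, 1055 and 199 at a floor of 10 FPKM, and 857 and 666 with limma-voom. With quantile normalization 180 were higher, and with library totals alone, a setting added after seeing the data, 1172 were lower. With no filter on low values both counts were 0, and with no line block, the fit without the pairing, both were 0. Among the 10 subunits, 0 were higher, against 1 with a pseudocount of 0.1, 1 with equal sums and 3 with limma-voom. Of 12353 genes, 750, 396 and 857 were higher in these settings, against 424. At a floor of 10 FPKM 2 of the 8 subunits tested were higher, where 1055 of 4453 genes were. Fitted differences near 0 changed sign for ITGA5 (-0.066 with quantile normalization, -0.14 with library totals alone), ITGB6 (-0.11 and -0.068) and ITGB8 (-0.063 with a pseudocount of 0.1, -0.11 with library totals alone). For HGC27 against MKN45 the 2012 higher and 2420 lower genes became 786 and 1051 at a floor of 10 FPKM, 830 and 1126 with treatment left out, and 0 and 0 with no filter, where the 1 higher and 8 lower subunits also became 0 and 0. At a floor of 10 FPKM fewer genes were tested, 4453, yet more were called higher after periplocymarin, 1055 against 424. The moderation at that floor was fitted anew over those genes. For none of these changes was the cause tested.

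Within HGC27, 2 subunits at least 2-fold higher became 1 with quantile normalization, equal sums or library totals alone, and 1 lower became 0 at a floor of 10 FPKM. Within MKN45, 1 higher became 2 with equal sums, and 0 lower became 1 with quantile normalization or library totals alone. Of the vehicle lines, 8 lower became 7 with equal sums and 5 of 6 at a floor of 10 FPKM. Depth limits ITGA2, ITGB4 and ITGB6 in HGC27, where 28 reads or fewer were behind each value.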
